A study of Rattus norvegicus with 10 samples.

Results

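Markers of the pyramidal neurons of hippocampal fields CA3 and CA2 were followed in 10 male TgF344-AD rats, from each of which the left hippocampus was sequenced. The set has 10 genes, chosen by name: 5 markers of CA3 (Grik4, Bok, Iyd, Cpne4, Cdh24) and 5 of CA2 (Amigo2, Rgs14, Pcp4, Map3k15, Cacng5). Of these, 8 are among the 17168 genes of the deposited tables. Cdh24 and Map3k15 were not analysed here, since no row carries either symbol or a RefSeq synonym of it. Iyd was listed but had too few counts to be tested, which left 7 tested members, 3 of CA3 and 4 of CA2. All groups were 11 months old and carried the same transgenes. TgF344-AD is a rat model of Alzheimer's disease on an inbred Fischer background, with mutant human transgenes driven by the mouse prion promoter. The 5 untreated rats ate rodent chow. The other 5 ate chow holding 750 mg per kg of RG2833, which blocks the class I histone deacetylases HDAC1 and HDAC3, from 5 months of age for 6 months. One sentence of the design text names ibudilast instead; the title and each sample's treatment label name RG2833. The comparison asks how the drug changes gene expression in transgenic males, and wild-type rats were not analysed here.

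Pyramidal neurons of CA3 receive the mossy fibres of dentate granule cells and send axons to one another and, as Schaffer collaterals, to CA1. CA2 is a narrow field between them, known for its part in social memory and for synapses that potentiate poorly, a property in which Rgs14 is known to take part. The markers used here are transcripts enriched in these fields in mouse and rat. Whole hippocampus was sequenced, so fewer cells of a type and less RNA per cell cannot be told apart.

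The markers are not equally specific, and the tables bear on this only in part. Pcp4 is also abundant in striatum, thalamus and deep neocortex, and Amigo2 and Grik4 are also present in other hippocampal neurons. Excitatory forebrain neurons were well represented in all libraries: Slc17a7, the vesicular glutamate transporter of these cells, was at 1056 to 1954 CPM. Its 3 lowest values were in untreated replicate 3 (1056 CPM), RG2833 replicate 5 (1125 CPM) and RG2833 replicate 4 (1267 CPM), the libraries that were also lowest in CA3 markers. CPM here means the authors' counts per 1000000, after their TMM scaling of library sizes (trimmed mean of M-values). It is not corrected for gene length, so levels are not compared between genes. Total expected counts ran from 15118203 to 18533520 per library, and ribosomal RNA took 4.08% to 11.4% of them. Choroid plexus markers, summed over 7 genes, were at 7642 CPM in untreated replicate 2 and 9049 CPM in RG2833 replicate 1, and at 5.8 to 277 CPM elsewhere.

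RG2833 and untreated rats did not differ detectably in any CA3 or CA2 marker. Of the 7 tested members, 0 had an adjusted p under 0.05 in edgeR's quasi-likelihood test with Benjamini-Hochberg adjustment over 12161 genes, against 0% of all genes. At an unadjusted p under 0.05 the count was also 0 of 7, against 5.66% (688) of all genes tested (2.94% higher and 2.71% lower in RG2833), and DESeq2 called 0 of the 7. The groups overlapped for all 7, where 0.995% of all genes had groups that did not overlap. What varied was the level from rat to rat within each group, above all for Cpne4, Grik4 and Bok.

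Cpne4 encodes a copine, a calcium-dependent phospholipid-binding protein. In untreated replicates 1 to 5 it was at 293, 259, 68.0, 252.5 and 261 CPM. In RG2833 replicates 1 to 5 it was at 221, 269, 270, 122 and 75.8 CPM. Untreated replicate 3 was far below the other untreated rats, at 26.2% of their median, and RG2833 replicates 4 and 5 were far below the other treated rats. All 5 RG2833 values lay inside the untreated range. The log2 fold change, RG2833 over untreated, was -0.26 (SE 0.42, 95% interval -1.19 to 0.67; edgeR adjusted p = 0.958; exact permutation p = 0.548). These values rest on 1069 to 5126 counts per library.

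Grik4 encodes GluK4, a high-affinity kainate receptor subunit found at mossy fibre synapses onto CA3 neurons. It was at 140.0, 116, 30.3, 105.5 and 114 CPM in untreated replicates 1 to 5. It was at 99.2, 122, 126.5, 78.9 and 60.6 CPM in RG2833 replicates 1 to 5. The same 3 libraries were lowest, and the ranges overlapped. The group means were 101 ± 41.6 CPM without and 97.5 ± 28.2 CPM with the drug (SD, n = 5 each). The log2 fold change was -0.06 (SE 0.35, 95% interval -0.83 to 0.71; edgeR adjusted p = 0.996; exact permutation p = 0.897).

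Bok encodes a pro-apoptotic member of the BCL-2 family that is strongly expressed in CA3 neurons. Its level was 80.2, 71.6, 34.9, 76.0 and 93.9 CPM in untreated replicates 1 to 5. In RG2833 replicates 1 to 5 it was 78.2, 83.7, 87.5, 44.0 and 39.9 CPM. Again untreated replicate 3 and RG2833 replicates 4 and 5 were the 3 lowest, with all treated values inside the untreated range. The log2 fold change was -0.11 (SE 0.29, 95% interval -0.75 to 0.54; edgeR adjusted p = 0.980; exact permutation p = 0.841).

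Iyd, which encodes the enzyme that recovers iodide from iodotyrosines, was not detectable above the floor of 3 counts per library. It had 0, 0, 0, 1 and 1 counts in untreated and 2, 0, 2, 1 and 2 counts in RG2833 replicates 1 to 5. No fold is given for it, since every library lies under 3 counts.

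**Figure D1:**
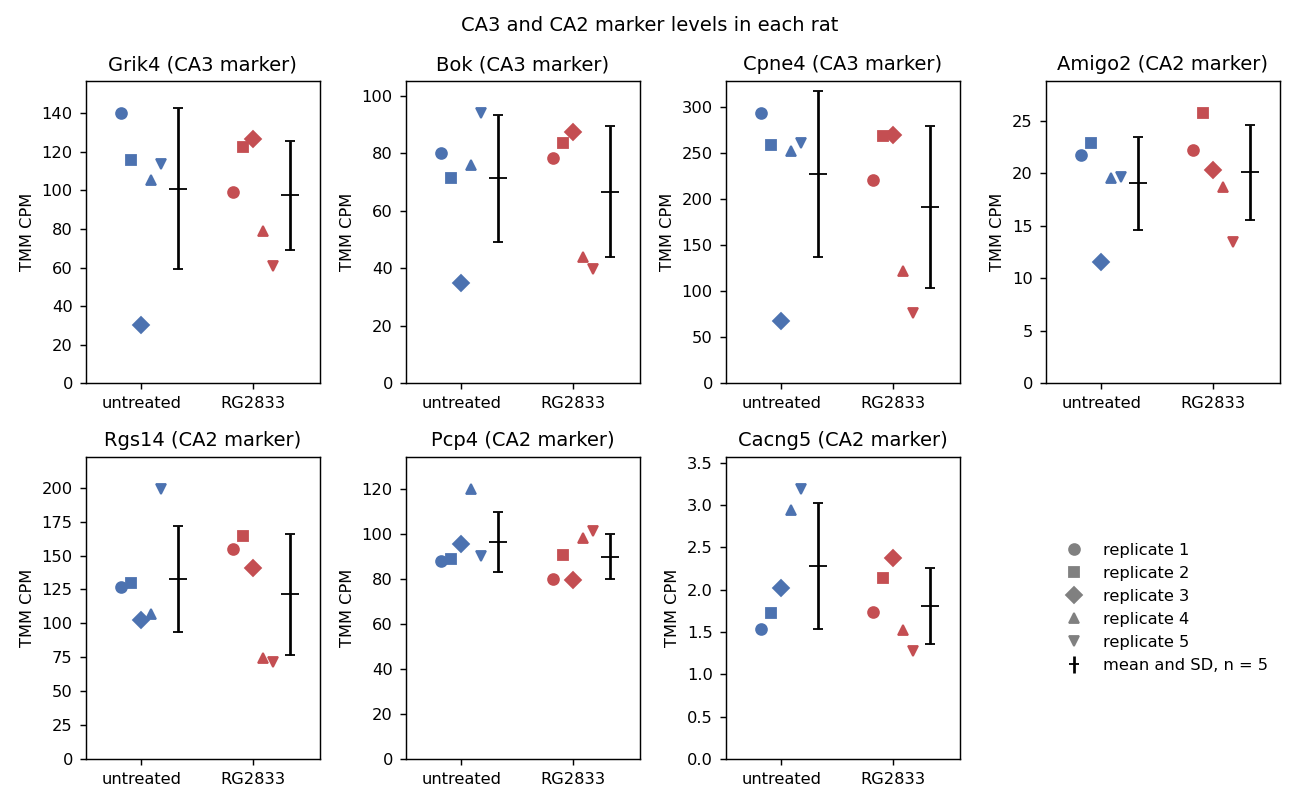
TMM CPM (y axis, from 0) of the 7 tested members in each rat, by group (x axis), with a marker shape for each replicate number and black bars for the mean and SD of 5 rats. For Cpne4, Grik4 and Bok, untreated replicate 3 and RG2833 replicates 4 and 5 lie below the other 7 libraries, and for every gene the groups overlap.

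Promoters of 3 members are shown because their transcripts were low in some of the same libraries and because they differ in base composition: Cpne4 and Grik4 of the CA3 set and Amigo2 of the CA2 set. RefSeq (GRCr8) gives 1 start site per gene, and a promoter was found for 8 of the 10 listed genes, the exceptions being Bok and Map3k15. Each line holds the 250 bases before the start, read in the direction of transcription. For Grik4 the start lies inside the gene's annotated span, so a longer form may begin elsewhere. In the first 2 sequences capitals mark E-boxes, CANNTG, the kind of site bound by NEUROD-type factors, which reads the same on both strands. In the third they mark GC boxes, GGGCGG on either strand.
Cpne4, chr8:114055902-114056151, plus strand: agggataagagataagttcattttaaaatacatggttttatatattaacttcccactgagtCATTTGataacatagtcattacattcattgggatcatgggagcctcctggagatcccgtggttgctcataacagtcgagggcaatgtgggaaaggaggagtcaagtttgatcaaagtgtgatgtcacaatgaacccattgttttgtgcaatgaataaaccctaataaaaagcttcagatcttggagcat
Grik4, chr8:52102064-52102313, minus strand: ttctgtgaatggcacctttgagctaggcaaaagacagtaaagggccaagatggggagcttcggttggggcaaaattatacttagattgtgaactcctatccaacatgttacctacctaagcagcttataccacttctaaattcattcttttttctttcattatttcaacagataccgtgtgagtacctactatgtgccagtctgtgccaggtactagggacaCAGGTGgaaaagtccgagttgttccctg
Amigo2, chr7:130273736-130273985, minus strand: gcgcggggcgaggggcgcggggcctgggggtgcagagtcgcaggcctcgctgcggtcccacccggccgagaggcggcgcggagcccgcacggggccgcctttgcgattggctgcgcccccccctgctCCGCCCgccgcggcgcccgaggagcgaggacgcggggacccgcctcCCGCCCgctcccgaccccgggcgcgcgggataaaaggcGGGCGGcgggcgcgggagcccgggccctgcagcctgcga

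The Cpne4 and Grik4 windows each held 1 E-box and 0 GC boxes, while the Amigo2 window held 0 E-boxes and 3 GC boxes, and no matches overlapped. At least 1 E-box was found in 65.5% and at least 1 GC box in 30.5% of 33469 rat promoters of the same length. CpG dinucleotides numbered 2 in Cpne4, 3 in Grik4 and 42 in Amigo2, against a median of 5 over all promoters. Among the other members, Rgs14 held 6 E-boxes and 10 CpG, Pcp4 held 1 and 7, and Cacng5 held 1 and 2. Iyd held 3 E-boxes and 2 CpG. Cdh24, a CA3 marker, held 1 E-box, 2 GC boxes and 22 CpG, so GC boxes were not limited to the CA2 set. Matches are letters in a window and not measured binding sites.

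Among the CA2 markers, Rgs14 and Amigo2 were low in some of the same libraries, while Pcp4 was not. Rgs14 encodes a regulator of G protein and Ras signalling that limits synaptic potentiation in CA2. It was at 127, 129.5, 102, 107 and 199 CPM in untreated and at 155, 165, 141, 74.7 and 71.4 CPM in RG2833 replicates 1 to 5. RG2833 replicates 4 and 5 were the lowest of the 10 libraries, and untreated replicate 5 was the highest. The log2 fold change was -0.14 (SE 0.27, 95% interval -0.74 to 0.47; edgeR adjusted p = 0.972; exact permutation p = 0.683).

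Amigo2 encodes a leucine-rich repeat cell adhesion protein. It was at 21.7, 22.9, 11.6, 19.5 and 19.6 CPM in untreated and at 22.2, 25.7, 20.3, 18.7 and 13.5 CPM in RG2833 replicates 1 to 5. Untreated replicate 3 and RG2833 replicate 5 were the lowest. Amigo2 was the single tested member with a higher fitted level in RG2833, by 0.06 on the log2 scale (SE 0.21, 95% interval -0.39 to 0.52; edgeR adjusted p = 0.982; exact permutation p = 0.714).

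Pcp4 encodes PEP-19, a small protein that binds calmodulin through an IQ motif. It was at 88.3, 89.2, 95.6, 120.1 and 90.5 CPM in untreated and at 80.2, 90.6, 79.6, 98.2 and 101 CPM in RG2833 replicates 1 to 5. Its spread was small, with a coefficient of variation of 13.8% in untreated and 11.2% in RG2833 rats. RG2833 replicates 4 and 5, low for the other CA2 markers, had the highest Pcp4 of their group. The log2 fold change was -0.12 (SE 0.10, 95% interval -0.35 to 0.12; edgeR adjusted p = 0.919; exact permutation p = 0.444). Of the 7 members Pcp4 had the narrowest interval, 0.786-fold to 1.08-fold.

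Cacng5 encodes an auxiliary subunit of AMPA receptors of the TARP family and was the faintest tested member, with 18 to 58 counts per library. It was at 1.53, 1.72, 2.02, 2.94 and 3.19 CPM in untreated and at 1.73, 2.13, 2.37, 1.53 and 1.28 CPM in RG2833 replicates 1 to 5. The highest 2 values were both from untreated rats, and the ranges overlapped. It had the largest fitted difference of the members, -0.34 on the log2 scale (SE 0.26, 95% interval -0.91 to 0.23; edgeR adjusted p = 0.901; exact permutation p = 0.278).

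The median log2 fold change was -0.11 over the 3 CA3 markers and -0.13 over the 4 CA2 markers, and the median over all genes tested was -0.01. Of the 7 members, 6 had a log2 fold change below 0, as had 53.5% of all genes. These values moved with single libraries. Without RG2833 replicate 5 the CA3 median was 0.04 and 3 of 7 members were below 0. Without RG2833 replicate 4 the CA3 median was 0.01 and 4 of 7 were below 0. Without untreated replicate 5 the count was also 4, with a CA3 median of -0.02 and a CA2 median of -0.04. Without untreated replicate 3 the CA3 median was -0.30 and all 7 were below 0. For Cpne4 the log2 fold change moved between -0.49 without untreated replicate 3 and -0.05 without RG2833 replicate 5. Leaving out a library brought 0 members past an adjusted p of 0.05 in each of the 10 fits. The 95% intervals of the CA3 markers reach from 0.438-fold to 1.6-fold for Cpne4, from 0.561-fold to 1.63-fold for Grik4 and from 0.594-fold to 1.45-fold for Bok.

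**Figure D2:**
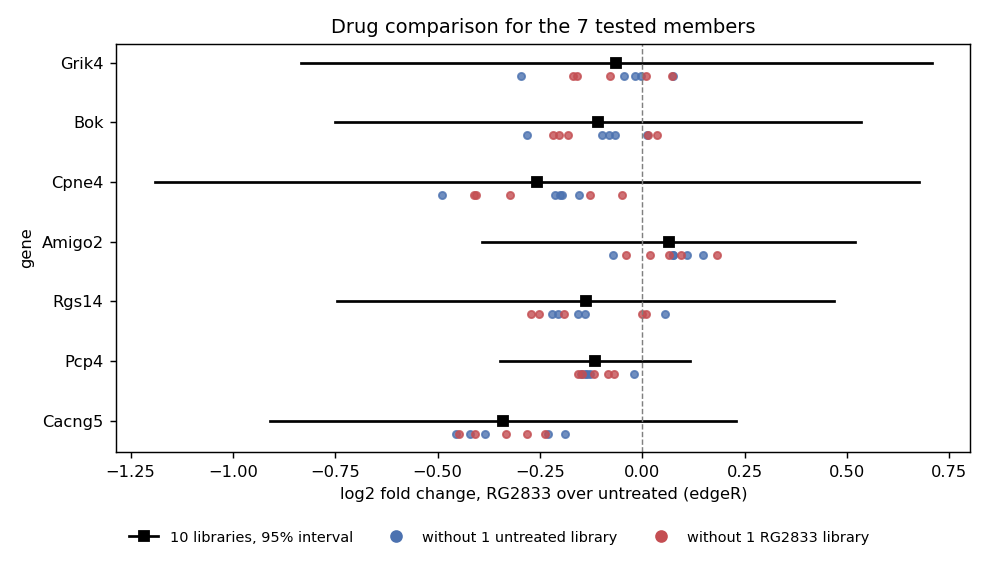
Log2 fold change of RG2833 over untreated (x axis) for the 7 tested members (y axis), with black squares and bars for the edgeR estimate and its 95% interval over 10 libraries, and dots for fits that leave out 1 untreated (blue) or 1 RG2833 (red) library. Each interval includes 0, and the dots for Cpne4 run from -0.49 to -0.05.

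The spread between rats of 1 group was much wider for the CA3 markers than for most genes. The within-group SD of log2 CPM was 0.85 for Cpne4, 0.71 for Grik4 and 0.56 for Bok, and 2.6%, 4.14% and 7.44% of the 12161 genes had a larger one. For Rgs14 it was 0.50 (9.39% of genes larger), for Cacng5 0.39 (16.4%), for Amigo2 0.38 (17.5%) and for Pcp4 0.17 (54.5%). The highest untreated value was 4.62 times the lowest for Grik4 and 4.31 times for Cpne4. In RG2833 rats these ratios were 2.09 and 3.56.

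**Figure D3:**
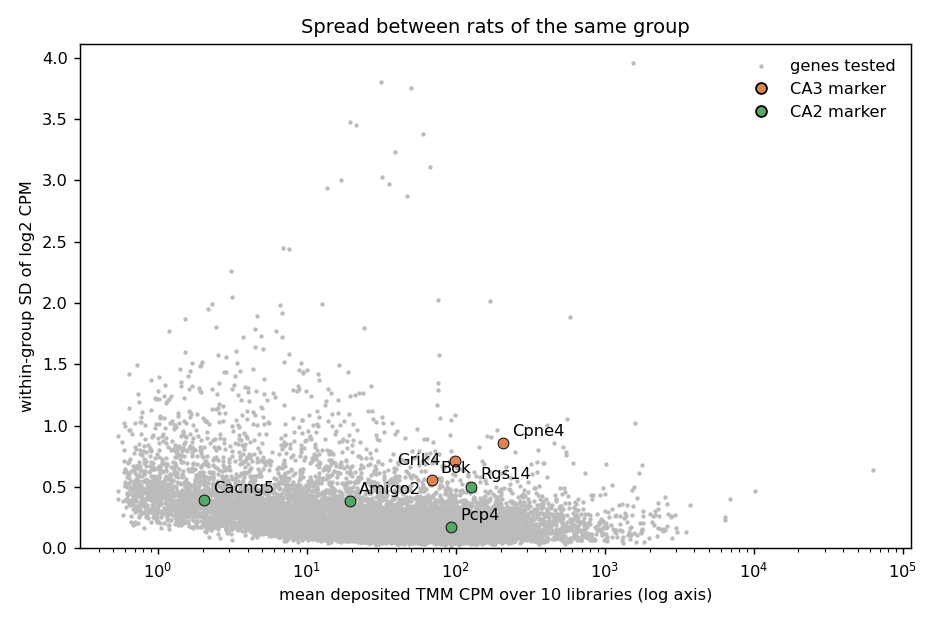
Within-group SD of log2 CPM (y axis) against mean TMM CPM over the 10 libraries (x axis, log scale) for all genes tested (grey), with CA3 markers in orange and CA2 markers in green. Cpne4, Grik4 and Bok sit above most genes of similar level, and Pcp4 lies within the bulk with an SD of 0.17.

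The 3 libraries low in CA3 markers came from both groups. The mean log2 CPM of the 3 CA3 markers was 5.34 in untreated replicate 3, 5.80 in RG2833 replicate 5 and 6.21 in RG2833 replicate 4, and between 6.91 and 7.19 in the other 7 libraries. Relative to the median of the other 4 untreated rats, untreated replicate 3 had 26.4% of the Grik4, 44.6% of the Bok, 56.0% of the Amigo2 and 79.7% of the Rgs14, but 106% of the Pcp4. RG2833 replicate 5 had 54.7% of the Grik4 of its group's other rats, 49.3% of the Bok, 31.0% of the Cpne4, 63.3% of the Amigo2 and 48.3% of the Rgs14, but 119% of the Pcp4. Ribosomal RNA took its 3 highest shares in the same libraries, 11.4% in untreated replicate 3, 9.37% in RG2833 replicate 4 and 8.92% in RG2833 replicate 5, against 4.08% to 8.71% in the other 7, and its part in the CA3 values was not tested. Across all genes tested, untreated replicate 3 was the lowest untreated library for 32.5% and the highest for 34.9%. RG2833 replicates 4 and 5 were the 2 lowest of their group for 25.1% and the 2 highest for 26.8% of these genes.

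**Figure D4:**
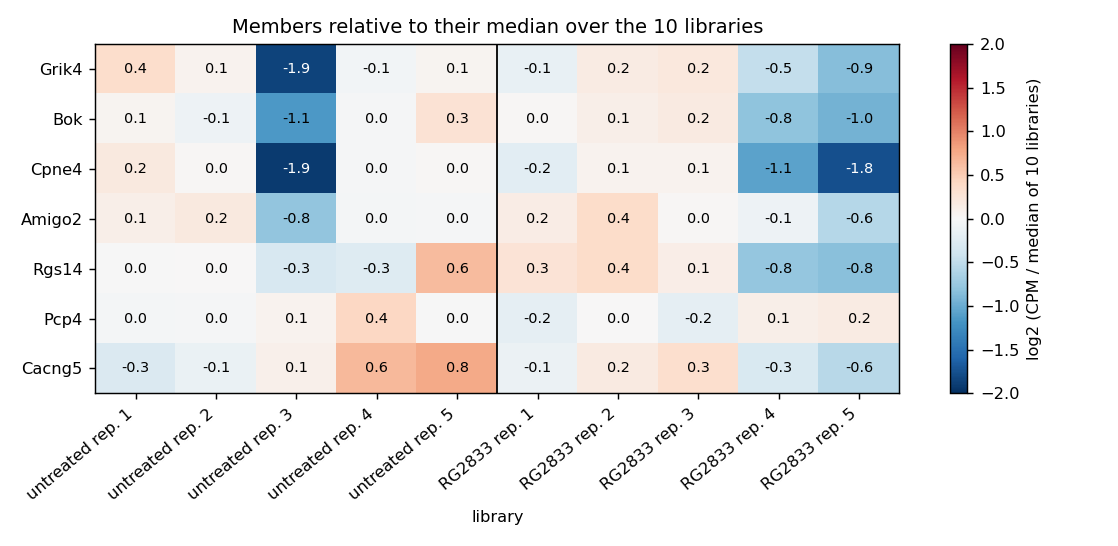
Log2 ratio of each member's TMM CPM to its median over the 10 libraries (colour and printed value), with genes in rows, libraries in columns and a line between the groups. The values for Cpne4 are lowest in untreated replicate 3 and RG2833 replicates 4 and 5, whereas those for Pcp4 lie near or above 0 there.

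In mean log2 CPM of the CA3 markers, the largest gap between neighbouring libraries was 0.70 and the next largest 0.45, with 3 libraries below the largest. The pairs of members are described within the 7 libraries above that gap. These 7 were picked by the level of the CA3 markers themselves after the values were seen, so the correlations have no test. Pearson's r of log2 CPM was 0.923 for Grik4 and Cpne4 (Spearman's rho 0.893), and 0.936 without the 2 libraries farthest from the Grik4 median. It was 0.067 for Grik4 and Bok (rho 0.107) and 0.0474 for Bok and Cpne4 (rho -0.107). The second highest of the 21 pairs was Bok with Rgs14, a CA3 and a CA2 marker (r 0.754, rho 0.786), and 10 of the 21 had an r above 0.

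The summed markers of microglia, endothelium, neocortex and striatum each had their 3 highest values in the 3 libraries where the CA3 markers were lowest, and their part in the CA3 values was not tested. All 5 microglia markers (Cx3cr1, Csf1r, P2ry12, Aif1, Tmem119) and all 5 endothelial markers (Cldn5, Flt1, Pecam1, Tek, Cdh5) were highest of the untreated in replicate 3, and had their 2 highest RG2833 values in replicates 4 and 5. The summed microglial level ran from 249.5 to 497 CPM in untreated and from 268 to 378 CPM in RG2833 rats. The endothelial sum ran from 201 to 388 and from 229 to 424.5 CPM. The neocortex list of 7 genes summed to 239 to 316 CPM in untreated and 259 to 332.5 CPM in RG2833 rats, with its 3 highest sums in RG2833 replicate 5 (332.5), untreated replicate 3 (316) and RG2833 replicate 4 (315 CPM). Of that list, Cux2, a factor of upper-layer neurons, was at 145 CPM in untreated replicate 3, 93.9 in RG2833 replicate 4 and 109 in RG2833 replicate 5, against 29.1 to 59.9 CPM in the other 7. Rspo2, also on that list, was in contrast lowest in those 3 libraries, and Tle4 (61.0 CPM) and Fezf2 (21.4 CPM) were lowest of the 10 in untreated replicate 3. Of the 7 genes, untreated replicate 3 was the lowest untreated library for 3 and the highest for 2, and RG2833 replicates 4 and 5 were the 2 lowest of their group for 1 and the 2 highest for 4. Of the 5 astrocyte markers, 4 were highest of the untreated in replicate 3, and 4 had their 2 highest RG2833 values in replicates 4 and 5. Striatal markers, of interest since Pcp4 is abundant there, summed to 176 to 306 CPM in untreated and 190 to 311 CPM in RG2833 rats. Oligodendrocyte markers were in contrast lowest of the 10 in untreated replicate 3 (7069 CPM) and highest in RG2833 replicate 5 (15680 CPM).

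The summed CA2, dentate and general pyramidal markers also had their 3 lowest values in the libraries lowest in CA3 markers, with single genes that differed, while the CA1 sum did not. The dentate sum was 137.5 CPM in untreated replicate 3, 162 in RG2833 replicate 5 and 169.5 in RG2833 replicate 4, and the general pyramidal sum was 3148, 3262 and 3269 CPM there. Prox1, the transcription factor that defines dentate granule cells, was at 4.41 CPM in untreated replicate 3 and at 29.0 to 49.8 CPM in the other untreated rats. C1ql2, a synaptic protein of granule cells, was likewise lowest there, at 7.29 CPM, while the other untreated rats had 53.8 to 140.1 CPM. Calb1, the calcium buffer calbindin, was in contrast highest of the 10 libraries in untreated replicate 3, at 93.0 CPM against 65.7 to 81.8 CPM, and Plk5 there had the second highest untreated value, 20.2 CPM. The 6 dentate markers in the tables summed to 137.5 to 306 CPM in untreated and 162 to 272 CPM in RG2833 rats, with Tdo2 at 0 in every library. The 6 CA1 markers summed to 489 to 1171.5 CPM in untreated and 707 to 1016 CPM in RG2833 rats, and the lowest sum was in untreated replicate 4, whose CA3 markers were not low. Of these, Fibcd1 was at 36.4 CPM in untreated replicate 3, while Wfs1 there was at 305 CPM, above 3 of the other 4 untreated rats. The 6 interneuron markers summed to 290.0 to 527.5 CPM in untreated and to 354 to 418 CPM in RG2833 rats. Of the general pyramidal markers, Neurod6 was at 43.3 CPM in untreated replicate 3, against 185 to 257 CPM in the other untreated rats, and Camk2a at 1960 CPM, against 1596 to 1743 CPM. Tbr1, also on that list, was highest in the libraries low in CA3 markers. It was at 44.4 CPM in untreated replicate 3 and 33.4 and 52.8 CPM in RG2833 replicates 4 and 5, against 18.6 to 33.1 CPM elsewhere.

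**Figure D5:**
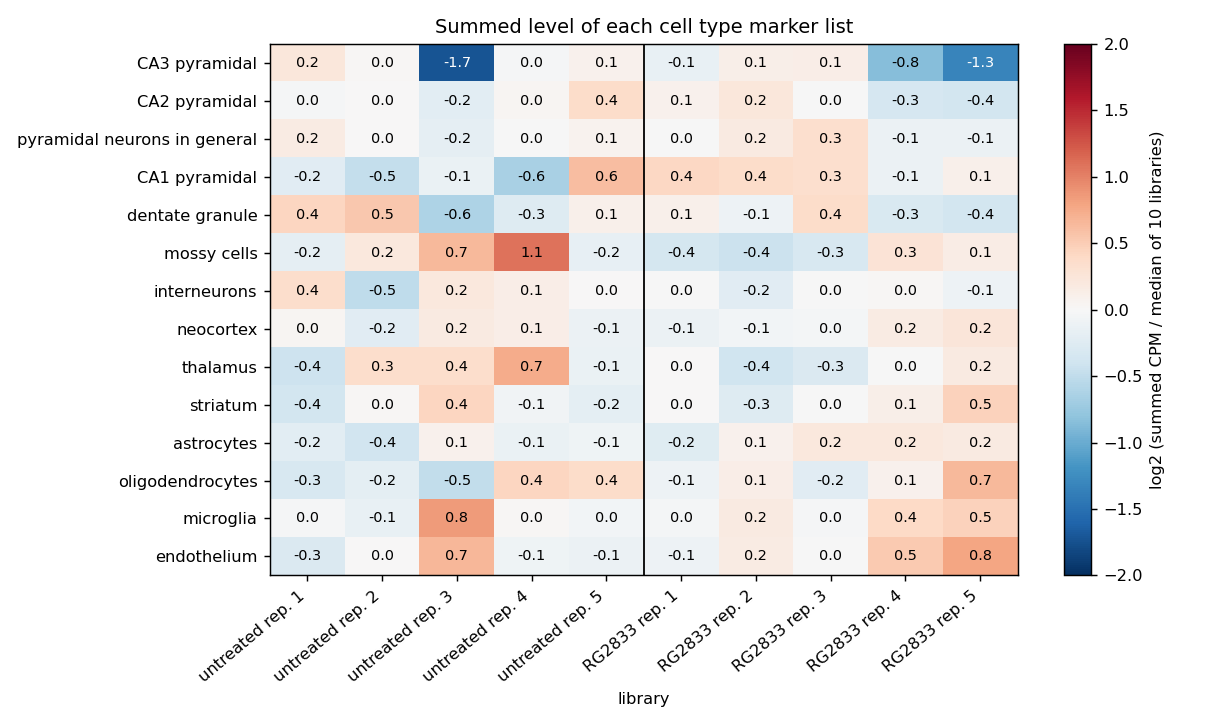
Log2 ratio of the summed TMM CPM of each cell type marker list to its median over the 10 libraries (colour and printed value), with lists in rows and libraries in columns; choroid plexus is left out for its range. The CA3 row is lowest in untreated replicate 3 and RG2833 replicates 4 and 5, where the CA2, general pyramidal and dentate rows are also lowest and the neocortex, striatum, microglia and endothelium rows are highest.

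Further genes enriched in the 2 fields gave the same outcome for the drug. Of 15 other CA3-enriched genes, 14 could be tested. Their fitted level was higher in RG2833 for 5 and lower for 9, 0 had an adjusted p under 0.05, and the median log2 fold change was -0.02. At an unadjusted p under 0.05, which 5.66% of all genes had, there was 1 of the 14, Trps1, a zinc finger repressor, with 21.1 ± 1.43 CPM in the untreated and 24.4 ± 2.04 CPM in the RG2833 group (SD, n = 5 each; log2 fold change 0.20, edgeR adjusted p = 0.841). Homer3, a postsynaptic scaffold protein picked out after its values were seen, was at 119, 113, 19.1, 92.9 and 112 CPM in untreated and at 97.3, 122, 126.5, 66.0 and 44.5 CPM in RG2833 replicates 1 to 5. It was thus low in the same libraries as Cpne4, and its log2 fold change was -0.01 (SE 0.44). Of the 14 genes, untreated replicate 3 was the lowest untreated library for 8 and the highest for 2. RG2833 replicates 4 and 5 were the 2 lowest of their group for 7 and the 2 highest for 3. Tyro3 went the other way, at 340 CPM in untreated replicate 3 and 242 and 278 CPM in RG2833 replicates 4 and 5. Elsewhere it was at 142 to 234.5 CPM.

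Of 16 other CA2-enriched genes, 13 could be tested. For 4 the fitted level was higher and for 9 lower, 0 had an adjusted p under 0.05, and the median was -0.08. Fgf2, a fibroblast growth factor that astrocytes also make, had an unadjusted p under 0.05, with 5.91 ± 0.95 CPM in the untreated and 8.30 ± 1.34 CPM in the RG2833 group (log2 fold change 0.48, edgeR adjusted p = 0.841). The astrocyte markers, summed over 5 genes, ran from 4091 to 5612 CPM in the untreated group and from 4493 to 6155 CPM in the treated one, and their part in the Fgf2 value was not tested. Nr3c2, the mineralocorticoid receptor, likewise picked out after its values were seen, was at 188, 174, 50.1, 142 and 207 CPM in untreated and at 167, 181, 204.5, 107 and 84.1 CPM in RG2833 replicates 1 to 5. It was low in the libraries low in CA3 markers, with a log2 fold change of -0.05 (SE 0.36). Of the 13 genes, untreated replicate 3 was the lowest untreated library for 7 and the highest for 4, and RG2833 replicates 4 and 5 were the 2 lowest of their group for 6 and the 2 highest for 2. Avpr1b, the vasopressin receptor for which CA2 is known, was listed but had too few counts to be tested.

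Gene families of the members showed no adjusted p under 0.05 either, and the single genes named for an unadjusted p under 0.05, here and among the CA2-enriched genes, stand against 5.66% of all genes. Among 6 kainate receptor genes, the other subunits and the Neto auxiliary proteins, 5 were higher and 1 lower, with a median of 0.04. The 3 with the smallest p were Neto2 (log2 fold change 0.14, SE 0.13), Grik2 (-0.10, SE 0.12) and Grik3 (0.13, SE 0.28). Grik5, which encodes GluK5, the other high-affinity subunit, had 314 ± 32.1 CPM in the untreated and 320 ± 21.4 CPM in the RG2833 group, without the wide spread of Grik4. Of 7 tested AMPA receptor auxiliary subunits other than Cacng5, 4 were higher and 3 lower (median 0.06), and those with the smallest p were Cacng2 (0.11, SE 0.07), Cacng7 (0.18, SE 0.14) and Cnih2 (0.12, SE 0.19). Of 9 tested BCL-2 family genes, 6 were higher and 3 lower (median 0.03). In that family Bbc3, which encodes the pro-apoptotic protein PUMA, had an unadjusted p under 0.05, with 5.73 ± 0.44 CPM in the untreated and 4.46 ± 0.44 CPM in the RG2833 group (log2 fold change -0.37, edgeR adjusted p = 0.841). Of 8 calmodulin and IQ-motif partners of Pcp4, 3 were higher and 5 lower, with a median of -0.07, and among those with the smallest p were Camk2a (0.12, SE 0.10) and Calm2 (-0.09, SE 0.11). Of 8 RGS and G protein genes, 3 were higher and 5 lower, and Gnai3, an inhibitory G protein subunit, had an unadjusted p under 0.05 (log2 fold change 0.16, edgeR adjusted p = 0.841). Of 8 other copines, 4 were higher and 4 lower (median -0.01), and those with the smallest p were Cpne9 (-0.14, SE 0.13), Cpne7 (0.27, SE 0.25) and Cpne5 (-0.28, SE 0.27). The 2 other AMIGO genes were Amigo1, with a log2 fold change of -0.12 (SE 0.10), and Amigo3, with one of 0.19 (SE 0.20).

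The genes whose pattern over the 10 libraries was most like that of the CA3 markers were Lppr4, Gpc1, Rspo2, Vps26a and Nxpe3. Likeness was Pearson's r of log2 CPM with the mean of the 3 CA3 markers, from 0.994 for Lppr4 to 0.99 for Nxpe3. This r is a description over 10 libraries that are split by a gap in CA3 level, with no test. Within the 7 libraries above the gap it was 0.752 for Lppr4, 0.819 for Gpc1, 0.716 for Rspo2, 0.901 for Vps26a and 0.566 for Nxpe3. Lppr4 encodes a synaptic lipid phosphatase-related protein and was at 464, 395, 146, 375 and 434 CPM in untreated and at 402, 407, 449, 233 and 202 CPM in RG2833 replicates 1 to 5. Gpc1, which encodes the heparan sulfate proteoglycan glypican-1, ran from 118 to 296 CPM in untreated and from 137 to 281.5 CPM in RG2833 rats. For the 4 CA2 markers the most alike were Sfrp2, Rasd1, Dhrs7b, Tmem50a and Clns1a, with r from 0.959 for Sfrp2 to 0.933 for Clns1a over the 10 libraries. In the 7 above the gap it was 0.886 for Sfrp2, 0.948 for Rasd1, 0.936 for Dhrs7b, 0.668 for Tmem50a and 0.765 for Clns1a. Rasd1, a Ras-like protein induced by dexamethasone, was at 38.2, 43.3, 19.2, 46.9 and 59.5 CPM in untreated and at 41.6, 49.1, 46.7, 19.8 and 18.8 CPM in RG2833 replicates 1 to 5.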

How the data were processed

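RNA from the left hippocampus of 10 rats, 1 library per rat, was made into stranded mRNA libraries, per the labels' protocols. Per the submitters' processing notes, bcl2fastq 2.17, Bowtie2 2.1.0, RSEM 1.2.15, edgeR and the build rn6 were used; their roles, the annotation and any filter are not given in the sources used here. The authors deposited RSEM expected counts, of which 11.6% were not whole, and a table of TMM-normalized CPM signal; 100% of the CPM values above 0 were whole multiples of 1 read, within 0.01, and the reads recovered gave 0 calls in edgeR. Of the deposited gene names, 25 had been turned into dates and none of these was named.

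Expected counts were rounded and tested with edgeR 4.0.16 in R 4.3.3: filterByExpr (minimum count 10, minimum total 15; 12161 genes), TMM, quasi-likelihood F test with robust dispersions, Benjamini-Hochberg adjustment over all genes, threshold 0.05. Standard errors and 95% intervals come from the F statistic. CPM per library is the deposited value. Exact permutation tests were two-sided over 252 regroupings, with a smallest possible p of 0.00794, and with scipy 1.17.1. Log2 CPM used a prior count of 2. Pair correlations, planned over all 10 libraries, are described, with no test, within the 7 above the largest gap in CA3 level. Promoters came from RefSeq (GRCr8).

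Members and lists were chosen with earlier results of these data known. All members are accounted for. In the lists of related genes (enriched genes and gene families), those with an unadjusted p under 0.05, or the 3 with the smallest p, are named. Values are also given for a few others and for some cell type markers, picked after they were seen, and for the 5 genes most like each set. Among the related genes, an item that the rule would name is not reported here. Alternatives were DESeq2 1.42.0, limma 3.58.1, other scalings and filters, a replicate block and each library left out. No pair of libraries was counted as 1 (chi-square per gene at least 7.38 over 45 pairs). The edgeR fit and the exact test were tested on simulated data.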

Additional observations from a re-analysis of the deposited data

Results flagged for a closer look

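The highest or lowest CPM of a group was set apart if the distance to its neighbour took up over 0.71 of the span of the 5 values. This held for 3 of 14 sets, 7 genes in 2 groups, where chance flags about 1 in 20, or 0.7 of 14. All 3 were in untreated rats.

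Cpne4 in untreated replicate 3 was low by 0.82 of the range, at 68.0 CPM with the next value at 252.5 CPM. In the same library the gap was 0.703 of the range for Amigo2, 0.686 for Grik4 and 0.622 for Bok, under the limit. Rgs14 in untreated replicate 5 was high by 0.717 of the range, at 199 CPM with the next value at 129.5 CPM. Pcp4 in untreated replicate 4 was high by 0.772 of the range, at 120.1 CPM with the next value at 95.6 CPM, and this library also had the highest summed thalamic (95 CPM) and mossy cell (61.0 CPM) markers of the 10. Of that mossy cell sum Calb2 gave 44.9 CPM, while Calcrl, Drd2 and Csf2rb were each lower there than in untreated replicate 3. The part of thalamic and mossy cells in the Pcp4 value of untreated replicate 4 was not tested.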

How the results depend on the processing

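No member passed an adjusted p of 0.05 under any of the 22 alternatives, where the lowest was 0.498 (Grik4); nor did any gene of the whole table in edgeR with all libraries, with 688 at an unadjusted p under 0.05, while DESeq2 called 7 genes, none a member. Cacng5, Cpne4 and Pcp4 kept the sign of their log2 fold change in all 22. Grik4 turned to 0.063 and 0.061 on deposited CPM with a pseudocount of 0.5 and 1, to 0.0028 with the replicate block, and to 0.0755, 0.0079 and 0.072 without untreated replicate 1, RG2833 replicate 4 and RG2833 replicate 5 (lowest -0.30). Bok turned to 0.012, 0.014 and 0.035 if untreated replicate 5, RG2833 replicate 4 or RG2833 replicate 5 was left out (lowest -0.28). Rgs14 turned to 0.055 and 0.0083 without untreated replicate 5 and RG2833 replicate 5 (lowest -0.27), and Amigo2 to -0.072 and -0.041 without untreated replicate 3 and RG2833 replicate 2 (highest 0.18). With 1 library left out, the number of members below 0 ran from 3 to 7; fewer samples entered these fits. Deviations of same-numbered rats from their group means correlated at -0.487 to -0.034, which cannot settle whether replicate numbers pair the rats. The replicate block gave 5 members below 0, 0 called, and 401 genes at an unadjusted p under 0.05. The count of such genes was 1263 in limma-voom with sample weights, 1732 with untreated replicate 3 left out, 375 with RG2833 replicate 4 and 424 with RG2833 replicate 5 left out; the cause was not tested. Cacng5 rests on 18 to 58 counts and Iyd on 0 to 2, so both are limited by depth.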

Other observations

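Expressed per 100 CPM of Slc17a7, a ratio chosen after the values were seen, Grik4 and Cpne4 were still lowest in untreated replicate 3. Grik4 was at 2.87 per 100 in untreated replicate 3 and at 6.57 to 7.32 in the other untreated rats, and at 5.38 to 6.85 in all RG2833 rats. Cpne4 was at 6.44 in untreated replicate 3 and 15 to 17.5 in the other untreated rats, and at 9.62 and 6.73 in RG2833 replicates 4 and 5 against 13.6 to 14.6 in the other treated rats. Bok was also lowest there, at 3.30 against 3.48 to 5.42 in the other 9 libraries. Rgs14 was not: it was at 9.67 in untreated replicate 3, above 3 of the other 4 untreated rats, and lowest of the 10 in RG2833 replicates 4 (5.90) and 5 (6.35). Amigo2 was at 1.10 in untreated replicate 3, the lowest of the 10, with 1.10 to 1.48 in the others. Pcp4 was at 9.05, 7.76 and 9.01 in untreated replicate 3 and RG2833 replicates 4 and 5, and at 4.31 to 8.33 elsewhere; Slc17a7 itself was lowest in those 3 libraries. The group means did not differ detectably for Grik4 (6.2 ± 1.89 untreated, 6.21 ± 0.54 RG2833; n = 5 each, two-sided exact permutation p = 1.00) or Cpne4 (14.0 ± 4.34 and 11.8 ± 3.44; exact permutation p = 0.333).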
